A study of Mus musculus with 8 samples.

Results

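Guanylate-binding proteins (GBPs) are a family of large GTPases that cells make in response to interferon. Probe sets of the expression array were taken as members when the platform annotation named only Gbp2, Gbp3, Gbp4, Gbp5, Gbp6, Gbp7, Gbp8 or Gbp9 for them. That gave 8 of the 45101 probe sets, reading 5 of the 8 genes: 2 probe sets each for Gbp2, Gbp6 and Gbp7 and 1 each for Gbp3 and Gbp8. Gbp4, Gbp5 and Gbp9 had no probe set of their own in this annotation and were not analysed here. A further probe set, annotated to Gbp8 and Gbp4 together, lay at the lowest value of the table, 2.18 on the log2 scale, on all 8 arrays.

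The arrays compare 4 brains of mutant mice, which carried the D849V substitution in Pdgfrb as a knock-in, with 4 brains of wild-type mice. All pups were at postnatal day 1 and on a mixed 129S/J background, and none received a treatment that the labels name. Small vessels with their pericytes were pulled from each dissociated brain by beads against PECAM, an endothelial surface protein, and 6 ug of total RNA from the vessels went onto 1 single-colour array per brain. The substitution leaves the PDGF receptor beta of pericytes active without ligand; whether the mutant pups carried 1 or 2 copies, and how the allele was switched on, is not given in the sources used here. The markers fixed for endothelial cells (13 of 13) and for pericytes (10 of 10) were bright enough to be tested. So were those for neurons (7 of 7), astrocytes (7 of 7), fibroblasts (5 of 5) and choroid plexus (4 of 4). Brightness therefore does not show how pure the vessels were.

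GBPs belong to the dynamin superfamily: they bind and hydrolyse guanine nucleotides, assemble on membranes and are best known from infected cells, where they gather on vacuoles or on bacteria in the cytosol. There they help to break the vacuole open and to start inflammasome signalling. Interferon gamma and type I interferon induce them through promoter elements called GAS elements and interferon-stimulated response elements. In the mouse the genes lie in 2 clusters, on chromosomes 3 and 5, and mice that lack the chromosome 3 cluster control Toxoplasma poorly.

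The GBP transcripts were among the most strongly raised in the mutant vessels: of the 11446 tested genes, 25 had a larger fitted difference than Gbp6 and 112 a larger one than Gbp7, the least raised. Gbp2, Gbp3, Gbp6 and Gbp7 were bright on all 8 arrays, and each of these 4 genes was higher in the mutants, by 5.40-fold (Gbp7) to 51.8-fold (Gbp6). Gbp8 was also higher, but it was bright on the mutant arrays only and so could enter the test only through them. Each difference passed limma's test with Benjamini-Hochberg adjustment over 11446 genes at a threshold of 0.05, and no member was lower. Of all tested genes, each read by its brightest probe set, 2.66% were called higher, and 4.07% had every mutant array above every control array. Every member gene did so, and so did every member probe set. That share was not computed over single probe sets. For Gbp8, with all controls under the filter, entry to the test required such a separation. Gbp2b, a family gene outside the member list, did not separate. Genes called lower made up 1.92%, and the median log2 difference over the 11446 genes was -0.11. In bulk tissue such as this, more cells of a type and more RNA per cell cannot be told apart.

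**Figure D1:**
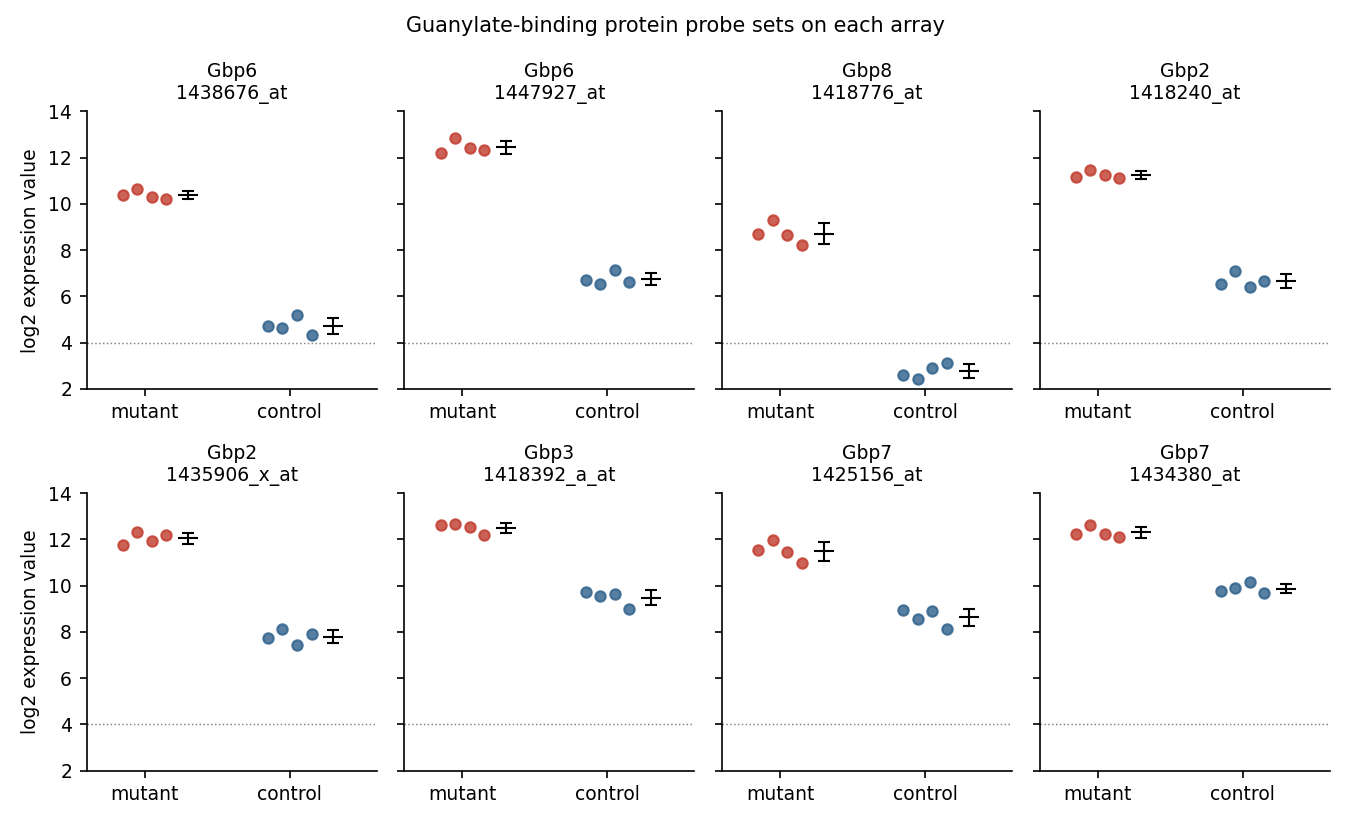
Log2 expression value (y axis) of the 8 GBP probe sets on each of the 4 mutant and 4 control arrays. Points are arrays, black bars are the mean ± SD, and the dotted line is the filter level of 4; on each probe set all mutant arrays lie above all control arrays, and the control arrays of Gbp8 lie under the filter.

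The upstream sequences of Gbp2, Gbp3 and Gbp7 are shown because these are the measured members with a RefSeq promoter entry, and interferon response elements are the known control sites of the family. Each line is the 250 bases before the annotated transcript start, 5′ to 3′ on the plus strand, from RefSeq on build GRCm38.p6. Capitals mark matches, searched on both strands, to the element's core (GAAA, any 2 bases, GAAA; read from the other strand TTTC, any 2 bases, TTTC) and to the GAS core (TTC, any 3 bases, GAA), which reads the same on both strands.
Gbp2, chr3:142620413-142620662: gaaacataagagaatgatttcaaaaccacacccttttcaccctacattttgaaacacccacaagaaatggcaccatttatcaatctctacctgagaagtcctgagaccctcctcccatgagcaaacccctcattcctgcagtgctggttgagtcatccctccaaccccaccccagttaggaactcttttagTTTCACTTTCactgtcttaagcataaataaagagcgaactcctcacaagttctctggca
Gbp3, chr3:142559794-142560043: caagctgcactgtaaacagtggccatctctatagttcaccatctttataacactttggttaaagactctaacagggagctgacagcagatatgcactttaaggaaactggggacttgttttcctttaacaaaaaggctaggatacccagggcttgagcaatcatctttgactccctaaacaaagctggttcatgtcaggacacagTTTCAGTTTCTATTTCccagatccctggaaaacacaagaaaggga
Gbp7, chr3:142530086-142530335: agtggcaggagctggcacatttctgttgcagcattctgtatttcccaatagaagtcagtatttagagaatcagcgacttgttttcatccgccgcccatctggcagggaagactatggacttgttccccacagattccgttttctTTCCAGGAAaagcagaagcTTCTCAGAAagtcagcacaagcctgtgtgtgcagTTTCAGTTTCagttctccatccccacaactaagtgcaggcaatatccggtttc

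The Gbp2 window held 1 match to the response element core, its first base 59 bases before the transcript start. Gbp3 had 2 such matches that overlap each other, starting 45 and 39 bases before its start. In Gbp7 a response element match began at 53 bases and GAS matches at 106 and 87 bases before the start. A second annotated start of Gbp3 had neither motif in its window. The window of Gbp2b, a family gene outside the member list that did not pass the test (described after the members), held 1 response element match, at 137 bases. Gbp5, which no probe set of its own reads here, held 1 response element match and 2 GAS matches. Among 32851 windows of the same length, 2.98% held the response element core, 7.02% the GAS core and 0.332% both. A match shows only that these letters are present. RefSeq entries were used for the 4 members Gbp2, Gbp3, Gbp5 and Gbp7, all of chromosome 3.

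Gbp2 is carried to membranes by a lipid (prenyl) anchor and takes part in the control of Toxoplasma in mouse cells. Its brighter probe set (1435906_x_at) read 11.78, 12.31, 11.93 and 12.20 on mutant arrays 1 to 4, against 7.74, 8.13, 7.43 and 7.91 on control arrays 1 to 4 (log2 values, as for all array values given here). The lowest mutant array exceeded the highest control array by 3.65. The means were 12.05 ± 0.25 for mutant and 7.80 ± 0.29 for control arrays (SD, n = 4 each). This is a difference of 4.25 (SE 0.175, limma adjusted p = 1.89e-06), or 19.0-fold with a 95% confidence interval of 14.4- to 25.1-fold. The suffix of that probe set marks probes that may also read other transcripts. The other probe set (1418240_at), without such a suffix, read 11.15, 11.48, 11.25 and 11.11 in mutants against 6.55, 7.11, 6.39 and 6.68 in controls. Its difference was 4.56 (SE 0.166, limma adjusted p over 22310 probe sets = 1.84e-06), and here too the groups stood far apart. Of those 22310 probe sets, 1.85% were called higher and 0.78% lower.

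Gbp3, a further gene of the chromosome 3 cluster, read 12.62, 12.66, 12.56 and 12.20 in mutants, against 9.73, 9.57, 9.62 and 9.01 in controls. Array 4 was the lowest of each group, and the gap between the groups was 2.47. With means of 12.51 ± 0.21 and 9.48 ± 0.32 (mutant and control, SD, n = 4 each), the difference was 3.03 (SE 0.177, limma adjusted p = 1.72e-05). This is 8.16-fold, with a 95% confidence interval of 6.16- to 10.8-fold.

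Gbp7, which in mouse macrophages has been linked to assembly of the phagocyte oxidase, was the least raised of the 5 genes. Its brighter probe set (1434380_at) read 12.23, 12.64, 12.26 and 12.11 in mutants, against 9.76, 9.90, 10.14 and 9.70 in controls. The groups were 1.96 apart at their nearest, the smallest gap of the 8 probe sets. The difference was 2.43 (SE 0.145, limma adjusted p = 1.97e-05), or 5.40-fold with a 95% confidence interval of 4.29- to 6.80-fold. The dimmer probe set (1425156_at) read 11.55, 11.99, 11.45 and 11.00 in mutants against 8.93, 8.56, 8.92 and 8.11 in controls. That difference was 2.87 (SE 0.25, limma adjusted p over all probe sets = 0.000381).

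Of the 4 genes bright on all arrays, Gbp6, on chromosome 5, changed the most. Gbp6 has been tied to defence against Listeria and mycobacteria in mouse macrophages. Its brighter probe set (1447927_at) read 12.20, 12.86, 12.43 and 12.35 in mutants, against 6.73, 6.55, 7.14 and 6.64 in controls. The nearest mutant and control arrays were 5.06 apart. Means of 12.46 ± 0.28 for mutant and 6.77 ± 0.26 for control arrays (SD, n = 4 each) gave a difference of 5.69 (SE 0.176, limma adjusted p = 7.42e-07). In linear terms Gbp6 was 51.8-fold higher, with a 95% confidence interval of 39.1- to 68.5-fold. On the dimmer probe set (1438676_at) the mutant arrays read 10.40, 10.64, 10.29 and 10.24 and the control arrays 4.72, 4.63, 5.18 and 4.32, just above the filter level of 4. Its difference was 5.68 (SE 0.183, limma adjusted p over all probe sets = 1.34e-06).

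Gbp8 read 8.69, 9.32, 8.65 and 8.21 in mutants, against 2.58, 2.44, 2.93 and 3.13 in controls. All control arrays lay under the filter level of 4, close to the lowest value of the table, so the controls give only a bound. Against the filter level Gbp8 was at least 26.3-fold higher in the mutants, a log2 bound of 4.72. The fitted difference was 5.95 (SE 0.244, limma adjusted p = 1.86e-06), but Gbp8 entered this test only through the mutant arrays. The probe set shared with Gbp4 stayed at the lowest value of the table on the same arrays.

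**Figure D2:**
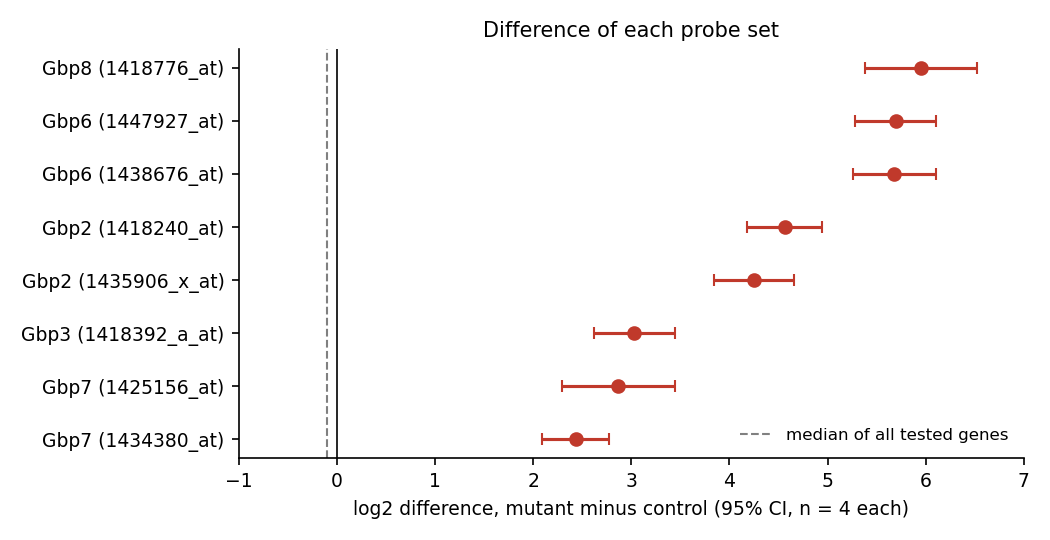
Log2 difference (x axis, mutant minus control) of each GBP probe set with its 95% confidence interval from limma, n = 4 arrays per group. Both Gbp6 probe sets lie near 5.7, Gbp8 at a fitted 5.95 that rests on controls under the filter, those of Gbp2 at 4.25 and 4.56, and those of Gbp3 and Gbp7 between 2.43 and 3.03; the dashed line is the median of all tested genes, -0.11.

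The members differed from one another in the size of the change. For each pair of genes the within-array difference of their log2 values was compared between the groups, by exact permutation (two-sided, 70 ways to assign the arrays) in the 6 pairs of Gbp2, Gbp3, Gbp6 and Gbp7. Gbp8 was left out, since its controls give only a bound. Gbp6 rose by 1.44 more than Gbp2 (SE 0.288), 2.67 more than Gbp3 (SE 0.222) and 3.26 more than Gbp7 (SE 0.102). Gbp2 rose by 1.22 more than Gbp3 (SE 0.31) and 1.82 more than Gbp7 (SE 0.25), and Gbp3 by 0.59 more than Gbp7 (SE 0.167). The groups did not overlap in any of the 6 pairs, each with an exact p of 0.0286, the smallest that this design allows, and the same value after adjustment. The order of change was thus Gbp6, Gbp2, Gbp3 and Gbp7. The control means rose in that same order (6.77, 7.80, 9.48 and 9.88), while the mutant means all lay between 12.05 and 12.51. What sets the order was not tested. These pairs use the brighter probe set of each gene; the dimmer one of Gbp7 changed by 2.87, nearer to the 3.03 of Gbp3, and that pair was not tested.

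Probe sets of the same gene differed less. Across the 3 genes with 2 probe sets the changes differed by 0.31 in Gbp2 (SE 0.117, exact p = 0.0857), 0.43 in Gbp7 (SE 0.19, exact p = 0.0571) and -0.01 in Gbp6 (SE 0.129, exact p = 0.886). The mutant and control arrays overlapped in all 3 of these comparisons, and the adjusted p was 0.129 or more.

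Gbp2b, the chromosome 3 family gene also known as Gbp1, is outside the member list and behaved less evenly. It read 8.80, 10.09, 9.86 and 3.07 on mutant arrays 1 to 4, against 4.04, 3.07, 2.59 and 3.07 on the control arrays. Mutant arrays 1 to 3 were far above every control, while mutant array 4 lay within the control range. The difference was 4.76 (SE 1.43) and did not pass (limma adjusted p = 0.11). Gbp2b entered the test through mutant arrays 1 to 3 and control array 1, which lay just above the level of 4. Without mutant array 4 the difference was 6.39 (SE 0.413, limma adjusted p = 0.000105). That array was singled out after its value was seen, so this fit cannot decide whether Gbp2b rose. With any other single array left out, Gbp2b did not pass (limma adjusted p 0.166 to 0.25). On mutant array 4 all 8 member probe sets lay above every control array.

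Across the mutant arrays the member probe sets moved largely together. Mutant array 2 gave the highest mutant value on 8 of 8 member probe sets, with a mean deviation of 0.34 from the mutant mean, and mutant array 4 gave the lowest on 6, with a mean deviation of -0.22. The other interferon-inducible GTPases deviated by 0.31 and -0.23 on the same 2 arrays. Microglia and macrophage markers deviated by -0.01 on mutant array 2 and by 0.30 and 0.25 on mutant arrays 1 and 3, where the members stood at -0.07 and -0.05. On mutant array 4 these markers were low as well, at -0.54, and so were the endothelial markers, at -0.38. No such order held among the controls, where each array was the highest on at least 1 member probe set.

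**Figure D3:**
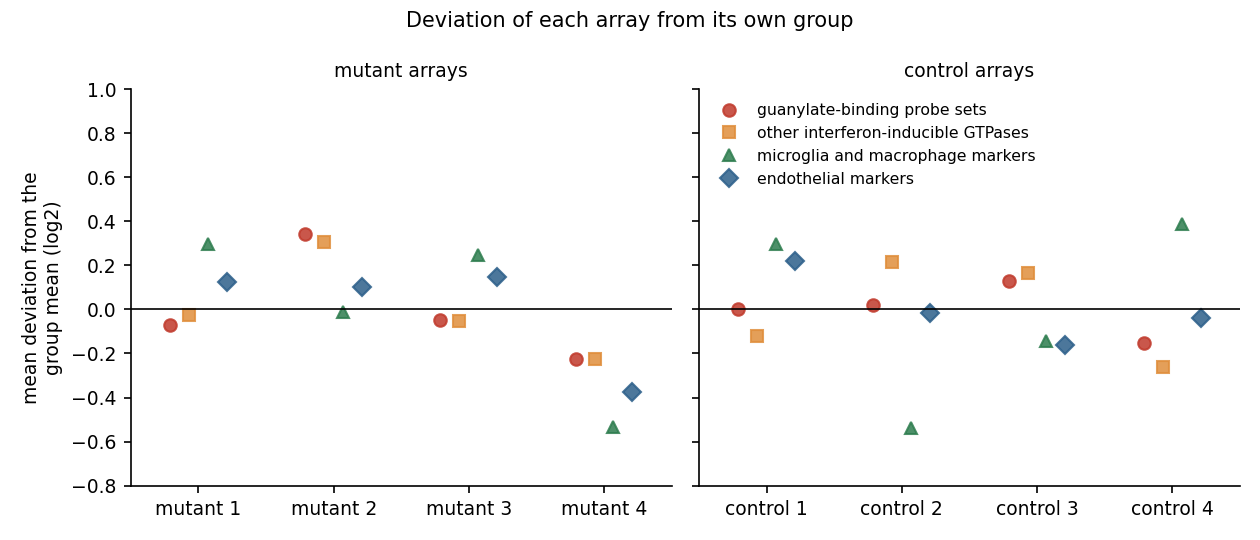
Mean deviation (y axis, log2) of each array (x axis) from the mean of its own group, for the 8 GBP probe sets and for tested genes of 3 lists. GBP probe sets and other interferon-inducible GTPases are high on mutant array 2 and low on mutant array 4, while the microglia and macrophage markers are highest on mutant array 1.

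No tested gene beside the clusters passed the test. Gene order was taken from the RefSeq gene table of assembly GRCm38.p6: Gbp5, Gbp7, Gbp3, Gbp2b and Gbp2 on chromosome 3, and Gbp8, Gbp9, Gbp4, Gbp10, Gbp6 and Gbp11 on chromosome 5. Of the 3 nearest protein-coding genes on each side of the 2 clusters, 12 in all and chosen after the values were seen, 8 had a probe set and 6 were tested. In limma's test 0 of the 6 passed and 2 had an unadjusted p under 0.05, as did 20.6% of all tested genes (2363 of 11446). Their differences ran from -0.69 to 0.06. Kyat3, a kynurenine aminotransferase next to the chromosome 3 cluster, read 5.18 ± 0.63 in mutants and 5.30 ± 0.30 in controls. On the other side of that cluster Pdlim5, a PDZ and LIM domain protein, read 9.26 ± 0.26 in mutants and 9.63 ± 0.06 in controls. Lrrc8c, a subunit of volume-regulated anion channels near the chromosome 5 cluster, averaged 8.66 ± 0.38 on mutant and 9.35 ± 0.17 on control arrays (SD, n = 4 each, limma adjusted p = 0.0858). In a wider list of neighbours 0 of 8 passed (3 with an unadjusted p under 0.05, against the same 20.6%), and its brightest genes, Zfp326 and Lmo4, differed by -0.39 and 0.31.

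**Figure D4:**
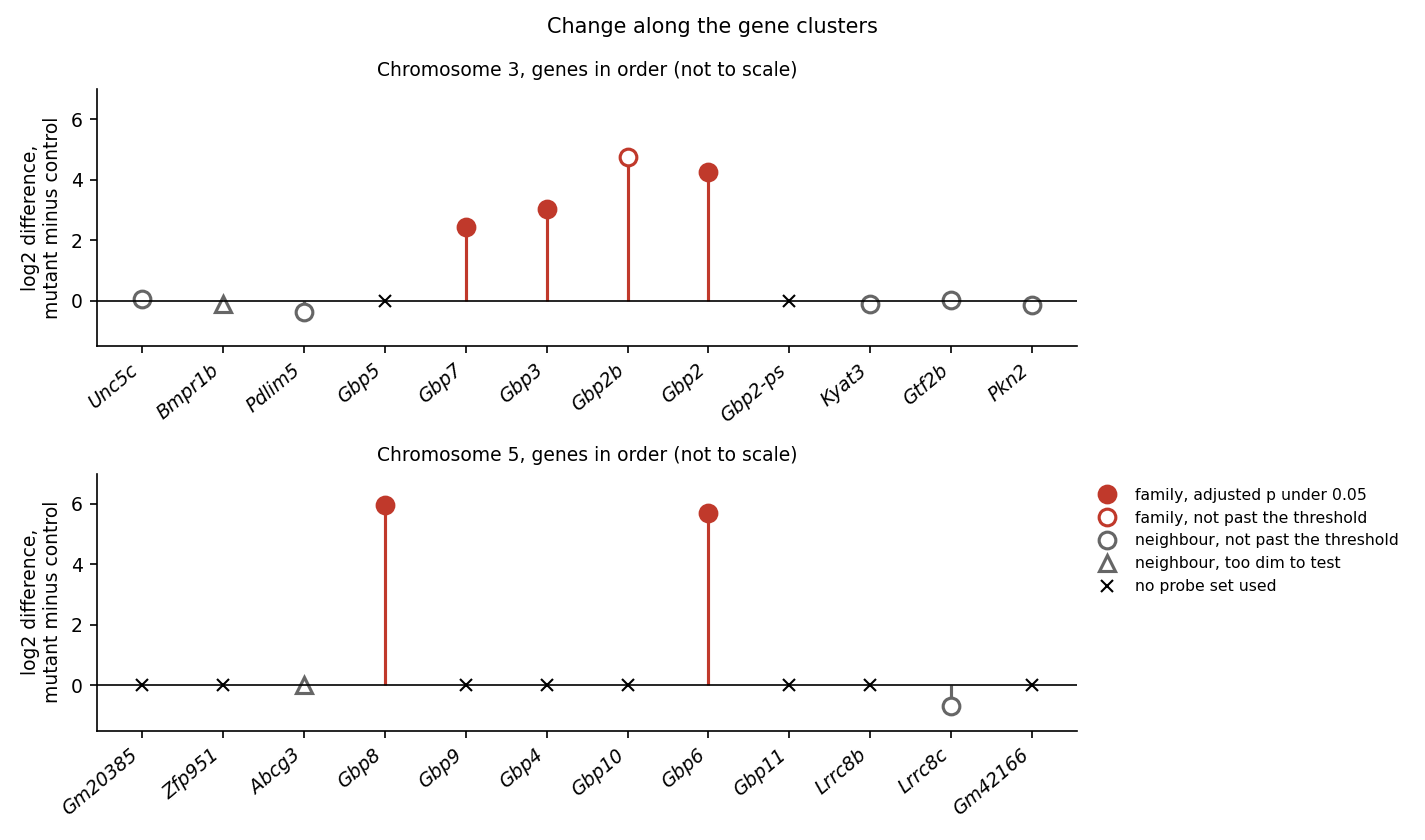
Log2 difference (y axis, mutant minus control, n = 4 arrays each) of the family genes and their 3 nearest protein-coding neighbours on each side, in gene order along chromosomes 3 and 5, not to scale. Gbp7, Gbp3, Gbp2 and Gbp6 stand between 2.43 and 5.69, Gbp8 at a fitted 5.95 with controls under the filter, Gbp2b at 4.76 did not pass the test, and the tested neighbours lie between -0.69 and 0.06.

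Genes that act with the GBPs were described by lists. The other interferon-inducible GTPases include the immunity-related GTPases that share vacuoles with GBPs and the antiviral Mx proteins. Of 8 tested genes in that list 7 were higher and none lower, against 2.66% and 1.92% of all tested genes. The list median was 4.17, against -0.11 for all tested genes (also 4.17 with genes whose controls lay under the filter set to their bound). Iigp1 (7.78), Ifi47 (5.07) and Igtp (4.16), all immunity-related GTPases, passed with limma adjusted p of at most 1.86e-06. Mx1 and Mx2 lay under the filter on all control arrays and were at least 24.9-fold and 4.26-fold higher. They could enter the test, and so the count of risen genes, only through the mutant arrays. Irgq did not pass, with 7.95 ± 0.45 on mutant and 8.34 ± 0.14 on control arrays (SD, n = 4 each). The 4 GBP genes bright on all arrays spanned 2.43 to 5.69.

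Of 19 interferon receptors, kinases and transcription factors, 6 rose and none fell, against 2.66% and 1.92% of all tested genes. The list median was 0.40. The risen genes were factors and no receptor or kinase: Irf7 (6.84), which drives interferon genes, Irf9 (1.87), the DNA-binding part of the type I interferon complex, Irf1 (2.12) and Irf8 (2.63), with Batf2 and the MHC class I activator Nlrc5. Batf2 was at least 2.81-fold and Nlrc5 at least 15.3-fold higher, since all their controls lay under the filter. Both could enter the test only through the mutant arrays. The limma adjusted p values of Irf7, Irf9, Irf1 and Irf8 were at most 0.000603. Irf1, which is needed for much of the GBP response in mouse cells, averaged 9.18 ± 0.34 on mutant and 7.06 ± 0.33 on control arrays (SD, n = 4 each). The interferon gamma receptor chain Ifngr1 read 8.02 ± 0.24 in mutants and 7.91 ± 0.19 in controls. The type I receptor chain Ifnar1 read 9.48 ± 0.16 in mutants and 9.93 ± 0.12 in controls (limma adjusted p = 0.0553). None of the 5 interferon ligand genes with a probe set was bright enough to be tested, and Ifng, Ifna1, Ifna2 and Ifna4 lay within 0.5 of the lowest value on all 8 arrays.

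Among inflammasome and cell death genes, 5 of 10 tested rose and none fell, against 2.66% and 1.92% of all tested genes. The list median was 0.93. Zbp1, a nucleic acid sensor, was at least 68.0-fold higher. It lay under the filter on all control arrays and could enter the test only through the mutant arrays. Mlkl, which ruptures the plasma membrane in necroptosis, rose by 3.86 (SE 0.279). Gsdmd, the pore-forming gasdermin, rose by 1.63 (SE 0.147) and the inflammasome adaptor Pycard by 1.57 (SE 0.152). Casp4, the mouse sensor of cytosolic lipopolysaccharide that GBPs help to activate, rose by 1.30 (SE 0.189, limma adjusted p = 0.00576). The sensors Aim2 and Nlrp3 were too dim to be tested, as was Casp1.

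The machinery that places GBPs on membranes gave no call. Of 15 genes of the autophagy conjugation system, which directs GBPs to vacuoles, 0 passed limma's test. Among them 3 had an unadjusted p under 0.05, near the 20.6% of all tested genes. Their median was -0.10, against -0.11 for all tested genes, and 4 differences were positive. Summed on a linear scale, the list ran from 27052 to 28102 on mutant and from 28998 to 30441 on control arrays. Map1lc3b read 12.98 ± 0.18 in mutants and 13.27 ± 0.09 in controls, and Map1lc3a read 11.98 ± 0.16 in mutants and 12.20 ± 0.10 in controls. Of 9 prenylation and anchor processing genes 0 passed and 2 had an unadjusted p under 0.05, also near that 20.6%, with a median of -0.19. Only 1 difference was positive, and the summed level ran from 5883 to 6746 on mutant and from 6989 to 7534 on control arrays. How often summed lists separate the groups like this was not computed. The shared farnesyl and geranylgeranyl transferase subunit Fnta read 11.46 ± 0.15 in mutants and 11.67 ± 0.13 in controls, and the protease Zmpste24 averaged 9.99 ± 0.22 on mutant and 10.32 ± 0.07 on control arrays (SD, n = 4 each).

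**Figure D5:**
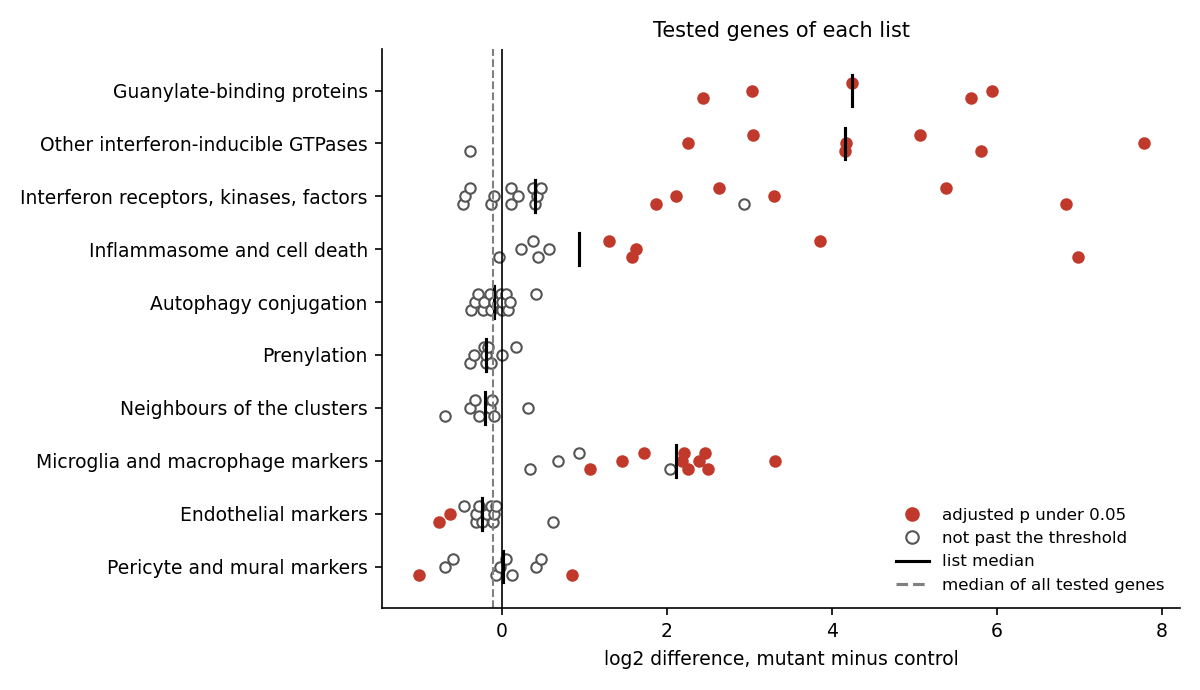
Log2 difference (x axis, mutant minus control) of the 5 GBP genes and of the tested genes of 9 lists; filled points passed limma's test, black bars are list medians and the dashed line is the median of all tested genes. GBP genes and other interferon-inducible GTPases lie mostly above 2, while autophagy, prenylation and neighbouring genes lie around 0, most of them below it.

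By profile, the tested genes outside the family nearest to the mean of the 5 GBP genes were Mndal, Slfn8, Il18bp, Igtp and Trim14. Likeness was the root mean square distance between gene-centred log2 values over the 8 arrays, and it ran from 0.131 (Mndal) to 0.269 (Trim14). Mndal, which belongs to the interferon-inducible p200 family, differed by 4.32 and Igtp by 4.16. All control arrays of the other three lay under the filter: Slfn8 was at least 12.5-fold, Il18bp, the secreted inhibitor of interleukin 18, at least 10.9-fold higher, and Trim14 was likewise only bounded. Their distances depend on dim values and give no order. Taken singly, Gbp3 was nearest to Irgm2 (distance 0.142), and Gbp7 to Parp9 (0.171). The nearest genes of Gbp2, Gbp6 and Gbp8 were Il18bp, Nlrc5 and Ifi204, all with controls under the filter. With groups this far apart, a small distance requires a similar difference between the groups.

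Markers of other cells moved with the GBPs in part. Of 14 tested microglia and macrophage markers 10 rose and none fell, against 2.66% and 1.92% of all tested genes, with a median of 2.11. Their summed level on a linear scale ran from 13265 to 23198 on mutant arrays and from 4992 to 7446 on control arrays. In that list Ctss rose by 2.26, C1qa by 2.38, Fcer1g by 2.18 and Aif1 by 3.31. P2ry12, Mrc1, Cd163 and Laptm5 were tested and did not pass (limma adjusted p 0.133 to 0.207). Itgam lay near the lowest value on all arrays, and Tmem119 and Trem2 were too dim to test. Of the T, NK and B cell markers, 0 of 11 were bright enough to be tested and 8 lay within 0.5 of the lowest value on all arrays, among them Cd3e, Cd8a, Ncr1 and Prf1. Of 4 tested monocyte and granulocyte markers only Plac8 rose (5.74), while S100a8 read 9.15 ± 0.72 in mutants and 8.83 ± 0.47 in controls and Ccr2, Mpo and Elane lay near the lowest value. Of 13 endothelial markers Erg (-0.63) and Slco1a4 (-0.77) fell and none rose, with summed levels of 68808 to 83295 in mutants and 86543 to 94855 in controls. Of 10 pericyte and mural markers Higd1b rose (0.85) and Pdgfrb, the gene that carries the substitution, fell by 1.01 on its brighter probe set. None of the tested neuron (7), astrocyte (7), oligodendrocyte (5), fibroblast (5), choroid plexus (4), smooth muscle (5) or erythroid (2) markers passed limma's test, and 2, 0, 0, 1, 0, 1 and 0 of them had an unadjusted p under 0.05, against 20.6% of all tested genes. The part of any cell type in the GBP rise was not tested.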

How the data were processed

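RNA was measured on 8 arrays, 4 mutant and 4 control, grouped by the titles in the labels. The deposited table holds 1 log2 value for each probe set and array, which the authors computed by GCRMA (version and options not stated), per the submitters' processing notes. GCRMA normalizes by quantiles and estimates background from probe sequence, so dim probe sets collect near 2.18 and their folds are compressed. A range of 2.18 to 16.49 identifies the scale as log2. Arrays have no depth; their number, 4 per group, limits precision. The labels call the samples biological replicates; they name no litter, preparation day or scan date, and no batch was tested.

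Of 45101 probe sets, 34958 had 1 gene symbol, 932 several and 9211 were unnamed here. Each of 18194 genes was represented by its brightest probe set, and the 11446 genes above 4 on at least 4 arrays were tested in limma (version 3.58.1, lmFit and eBayes, R 4.3.3) with no covariate and two-sided, with Benjamini-Hochberg adjustment over all of them and a threshold of 0.05. A second fit took 22310 probe sets singly. A fold is a lower bound, set against the level of 4, where all controls lay under it. A gene with all controls under that level could enter the test only through the mutant arrays. The fit was tested on simulated data. The members, gene lists, motifs and the rule for named genes were chosen with earlier results of these data known. That rule names the members, the 5 nearest profiles, Pdgfrb, and from each list up to 4 passing genes of smallest p or the 2 brightest; further names, and markers chosen as examples, were picked after their values were seen. Cell marker lists without a call are given as counts only. Gene order and promoters came from RefSeq tables of GRCm38.p6.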

Additional observations from a re-analysis of the deposited data

How the results depend on the processing

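The 5 GBP genes stayed higher and past the threshold under all 18 alternatives run for each, and with every probe set tested singly. These were other filters, normalizations, probe set choices and variance models, Y-linked genes as a covariate, a replicate block and each array left out. Their differences ranged from 4.13 to 4.56 (Gbp2), 2.87 to 3.23 (Gbp3), 5.56 to 5.82 (Gbp6), 2.32 to 2.65 (Gbp7) and 5.75 to 6.12 (Gbp8, fitted on controls under the filter). Counts over all genes moved more, from 304 higher and 220 lower: the falls numbered 135 with no filter, 142 with Y-linked genes as a covariate and 38 with the replicate block, and array weights gave 895 higher and 2263 lower. With an array left out, falls ranged from 62 (without control replicate 4) to 266 and rises from 231 to 342. Falls also came to 89 without mutant replicate 3, 143 without mutant replicate 1, 101 without control replicate 1, 106 without control replicate 2 and 89 without control replicate 3. The cause was not tested. Deviations of same-numbered arrays correlated at -0.08, -0.48, -0.20 and 0.30 for replicates 1 to 4. Differently numbered arrays were not set beside these values, so they cannot decide whether same-numbered samples shared a litter or preparation. Counts of the gene lists, but not of the cell marker lists, were recomputed for the filters, the normalizations and each array left out. They were not recomputed for the block, covariate, weights, variance or probe set settings. Of 192 such counts, 187 kept within 1.5 times and 5 moved, each by 1 gene. Most of the 187 were counts of 0 that stayed 0, so they say little about stability. Signal near the lowest value limits Gbp8 and Gbp2b.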
